A study of Ovis aries with 54 samples.

Results

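Genes that move salt and water across the lung lining were described in tissue of sheep (Ovis aries) after exposure to porcine elastase and lipopolysaccharide. The 10 genes were chosen by symbol from the 30184 genes used of the count table: CFTR, SLC12A2 and SLC26A4 for chloride, SCNN1A, SCNN1B and SCNN1G for sodium, AQP1, AQP3 and AQP4 for water, and the transcription factor gene FOXI1. All 10 symbols were found. The tissue is lung, from lobes of the animals. PE/LPS pieces, exposed to the elastin-cutting enzyme porcine elastase together with lipopolysaccharide from the bacterial cell wall, came from 7 sheep and were all coded LC in the titles. Saline pieces came from the same 7 sheep and were all coded RA, so treatment and code cannot be told apart in them. Control pieces came from 4 other sheep, with code LC in sheep 10 and 18 and RA in sheep 7 and 9. The sources used here do not give the meaning of the codes, the strain or age of the animals, or the doses and times of exposure.

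Each of the 18 pieces was sequenced as 3 libraries, which were summed. A PE/LPS piece held 9653262 to 37777824 counts, a saline piece 12760040 to 34762189 and a control piece 23106036 to 41946705. In the PE/LPS piece of sheep 11, library 1 held 115109 counts, against 2777537 or more in each of the others. The titles of 4 pieces (PE/LPS sheep 2, 8 and 11, and control sheep 9) have further characters after the code. Levels are CPM, summed counts scaled to the TMM-adjusted count total of each piece. A floor of 3 counts is 0.0691 to 0.384 CPM, depending on the piece. They are not divided by transcript length, so levels of different genes are not ranked against each other. In bulk tissue, fewer cells of a type and less RNA per cell cannot be told apart.

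The depth of airway liquid is set by salt, which water follows. In the airway surface epithelium, CFTR lets chloride and bicarbonate out at the apical membrane, SLC12A2 (NKCC1) loads the cell with chloride from the basal side, and the epithelial sodium channel ENaC, built of subunits from SCNN1A, SCNN1B and SCNN1G, takes sodium back in. Aquaporins are water channels: AQP1 is known from lung capillary endothelium, AQP3 from airway basal cells and AQP4 from the basolateral membrane of airway epithelial cells. FOXI1 specifies ionocytes, rare airway cells known in humans and mice for high CFTR.

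Across PE/LPS, saline and control tissue, the chloride, sodium and water transport genes with solid counts lay in ranges that overlapped between the groups. AQP1, the endothelial water channel, was the 1 gene of the 8 tested with the same direction in every sheep, but it did not pass the test. Its mean was 1.01 ± 0.474 CPM over PE/LPS pieces and 0.336 ± 0.370 CPM over saline pieces (SD, n = 7 each), and it was higher in the PE/LPS piece in 7 of 7 sheep. FOXI1 and SLC26A4 were close to the limit of detection in nearly all pieces. By edgeR's quasi-likelihood test with the sheep as a block and Benjamini-Hochberg adjustment at 0.05, 0 of the 8 transport genes that passed the filter on low counts were called between PE/LPS and saline tissue, and 0 of all 16944 genes tested were (0%). DESeq2 also called 0 of the transport genes, and 47 genes over the table. The unadjusted p of edgeR was under 0.05 for 976 genes (5.76%), 426 of them higher in PE/LPS (2.51%), and among the transport genes for AQP1 alone.

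**Figure D1:**
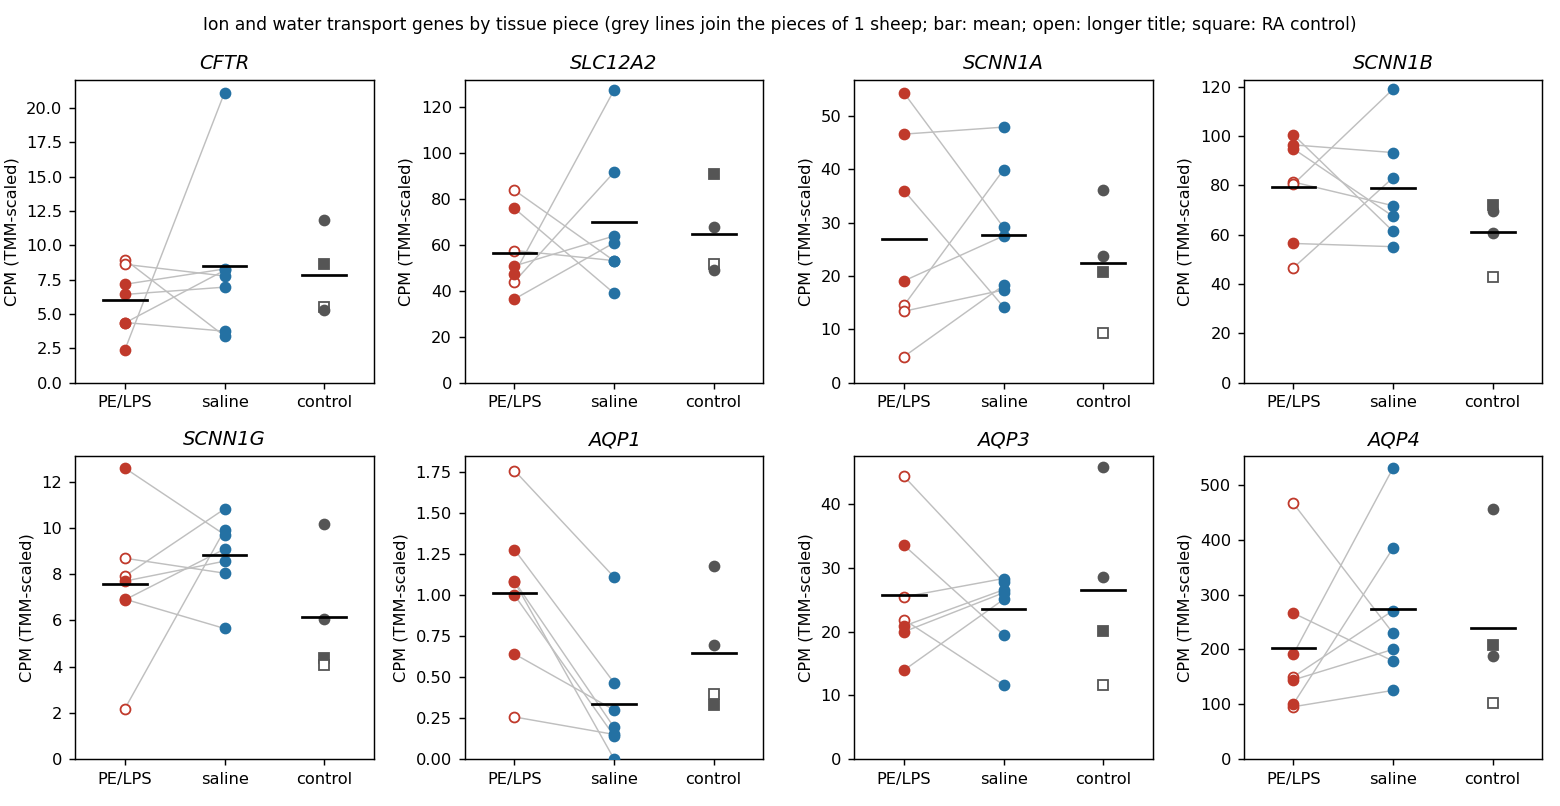
Levels of 8 transport genes (y axis, CPM) in PE/LPS, saline and control pieces (x axis). Each point is a piece, grey lines join the pieces of 1 sheep, bars are means, open symbols are pieces with a longer title and squares are RA control pieces. The AQP1 lines all run downward from PE/LPS to saline, while those of the other genes run both ways.

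CFTR, the chloride channel, had 2.39, 6.42 and 8.96 CPM (lowest, median and highest) in PE/LPS pieces, against 3.39, 7.76 and 21.1 CPM in saline pieces. The LC control pieces had 11.9 and 5.30 CPM and the RA control pieces 8.62 and 5.49 CPM. The groups overlapped, and the saline piece of sheep 14 stood above all other pieces. CFTR was higher in PE/LPS in 3 of 7 sheep and lower in 4, with a log2 fold change of -0.30 (95% interval -1.29 to 0.68). Without sheep 14 the log2 fold change was 0.09, so its sign rested on that animal. The standard deviation of the within-sheep log2 difference was 1.39, against 0.55 for SCNN1B. The piece with the highest CFTR level also held the highest SLC12A2 level (127 CPM), the highest FOXI1 level (2.44 CPM) and the highest summed level of 7 submucosal gland markers in the table, out of a list of 8 (4671 CPM, where the other saline pieces had 564 to 1766 CPM). None of the 7 gland markers was at 0 in a whole group, and their sum ran from 316 to 1377 CPM in PE/LPS, 564 to 4671 CPM in saline and 438 to 1765 CPM in control pieces. Their part in the CFTR values was not tested.

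SLC12A2, which brings in chloride together with sodium and potassium, had 36.3, 50.8 and 83.7 CPM (lowest, median and highest) in PE/LPS pieces, against 38.9, 60.8 and 127 CPM in saline pieces. The control pieces of sheep 7, 9, 10 and 18 had 90.8, 51.8, 67.8 and 49.02 CPM. All 3 ranges overlapped. The log2 fold change of PE/LPS over saline was -0.25 (95% interval -0.91 to 0.40), with 3 sheep higher and 4 lower. It ran from -0.46 without sheep 16 to -0.05 without sheep 14.

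SLC26A4, the chloride and bicarbonate exchanger pendrin, was detected in 3 of 54 libraries with 41 counts in all. The PE/LPS piece of sheep 1 had 4 counts, the saline piece of sheep 1 had 17 and the control piece of sheep 10 had 20. Each of these came from a single library of its piece, and the other 15 pieces had 0 counts. The PE/LPS and saline detections fell in the same animal. A count of 0 allows up to the floor of the piece, so a level below that was not detectable at this depth. An entry for a long noncoding RNA overlaps SLC26A4 in the RefSeq annotation of the ARS-UI_Ramb_v3.0 assembly, but it held 2 counts in 1 piece.

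The 3 ENaC subunit genes had ranges that overlapped between the 3 groups. SCNN1A, the alpha subunit that the channel needs to function, had 4.86, 19.1 and 54.3 CPM (lowest, median and highest) in PE/LPS pieces, against 14.2, 27.5 and 47.9 CPM in saline pieces. The control pieces of sheep 7, 9, 10 and 18 had 20.8, 9.23, 23.7 and 36.2 CPM. PE/LPS pieces lay at both ends of the scale: those of sheep 2, 8 and 11 were the lowest of their group and those of sheep 14, 15 and 16 the highest. PE/LPS over saline gave a log2 fold change of -0.28 (95% interval -1.08 to 0.52). The 4 pieces with a longer title had 4.86 to 14.5 CPM and the other 14 had 14.2 to 54.3 CPM. Without the sheep whose PE/LPS piece has a longer title, the log2 fold change was 0.41 (edgeR p = 0.296). The sources used here do not say what the longer titles stand for.

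SCNN1B, the beta subunit, varied least within sheep of the 8 genes. It had 46.6, 81.4 and 100.5 CPM (lowest, median and highest) in PE/LPS pieces, against 55.1, 71.7 and 119 CPM in saline pieces. The control pieces of sheep 7, 9, 10 and 18 had 71.8, 42.7, 69.8 and 60.5 CPM. The log2 fold change of PE/LPS over saline was 0.02 (95% interval -0.48 to 0.52), with 5 sheep higher and 2 lower, where 24.5% of all genes tested were higher in 5 or more of 7 sheep. A long noncoding RNA entry overlaps SCNN1B in the annotation and held 412 counts over 15 pieces, against 38364 counts of SCNN1B. The sources used here do not give the strand setting of the counting, so reads of the 2 entries may be split.

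SCNN1G, the gamma subunit, had 2.18, 7.70 and 12.6 CPM (lowest, median and highest) in PE/LPS pieces, against 5.65, 9.08 and 10.8 CPM in saline pieces. In LC control pieces it had 10.2 and 6.04 CPM and in RA control pieces 4.36 and 4.08 CPM. The saline pieces lay closer together than the PE/LPS pieces, where sheep 2 was the low end. Relative to saline the log2 fold change was -0.29 (95% interval -0.98 to 0.40), and -0.04 without sheep 2. Relative to SCNN1B in the same piece, SCNN1G varied with a standard deviation of 0.52 on the log2 scale over PE/LPS pieces, 0.34 over saline pieces and 0.52 over control pieces. The ratio of SCNN1A to SCNN1B varied more, with standard deviations of 0.90 over PE/LPS pieces, 0.88 over saline pieces and 0.62 over control pieces.

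AQP1 was the least measured of the 8 genes that passed the filter, with 351 counts in 40 of 54 libraries. The PE/LPS pieces of sheep 1, 2, 8, 11, 14, 15 and 16 had 0.641, 0.256, 1.08, 1.76, 1.08, 1.28 and 1.00 CPM, from 12, 2, 27, 30, 40, 42 and 43 counts. The saline pieces of the same sheep had 0.298, 0.149, 0, 1.11, 0.193, 0.465 and 0.140 CPM, from 11, 3, 0, 28, 3, 17 and 3 counts. The groups overlapped, since the saline piece of sheep 11 stood above 5 PE/LPS pieces, but within each sheep the PE/LPS piece was higher. In sheep 2 both values were at or under the floor. Of all genes tested, 0.82% of genes were higher in 7 of 7 sheep.

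The log2 fold change of AQP1 in PE/LPS over saline was 1.98 (SE 0.83, 95% interval 0.17 to 3.79, edgeR p = 0.0342, adjusted p = 0.771). Leaving out sheep 8 gave the lowest value, 1.53, and leaving out sheep 11 the highest, 2.25. Over 15 alternatives the adjusted p was 0.261 to 1.00 and the unadjusted p 0.00529 to 0.0862. The counts were uneven between libraries: in 13 of the 17 pieces with counts, 1 library held more than 50% of them, such as 40 of 42 counts in library 1 of PE/LPS sheep 15 and 17 of 17 in library 3 of saline sheep 15. For PE/LPS against saline, AQP1 did not pass the filter on low counts in fits of a single library of each piece. Control pieces had 0.693 and 1.18 CPM where coded LC and 0.330 and 0.396 CPM where coded RA. All lay within the range of the PE/LPS pieces, and all but the one at 1.18 CPM also within that of the saline pieces (0 to 1.11 CPM).

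Endothelial and red cell markers were measured in the same pieces. All 9 endothelial markers were in the table and none was at 0 in a whole group. Their sum ran from 1216 to 1577 CPM in PE/LPS, 697 to 1550 CPM in saline and 1120 to 1519 CPM in control pieces, and 2 of the 9 (EDNRB, an endothelin receptor, and KDR, a VEGF receptor) had an unadjusted edgeR p under 0.05, both higher in PE/LPS, beside 2.51% of all genes on that side. The lowest endothelial sum was that of saline sheep 14. Of the 9 endothelial markers, 7 had a positive and 2 a negative log2 fold change. Red cells also carry AQP1: of 7 red cell markers 4 were in the table, with SLC4A1 at 0 in all groups, and the sum was 3.25 to 45.6 CPM in PE/LPS, 0.766 to 18.7 CPM in saline and 4.33 to 46.9 CPM in control pieces. HBB, the beta chain of haemoglobin and one of a family of near-identical genes, was higher in PE/LPS in 7 of 7 sheep (log2 fold change 1.88, edgeR adjusted p = 0.771, DESeq2 adjusted p = 0.00311). DESeq2 also called EDNRB (adjusted p = 0.00787), which edgeR did not. The part of either cell type in the AQP1 values was not tested.

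**Figure D2:**
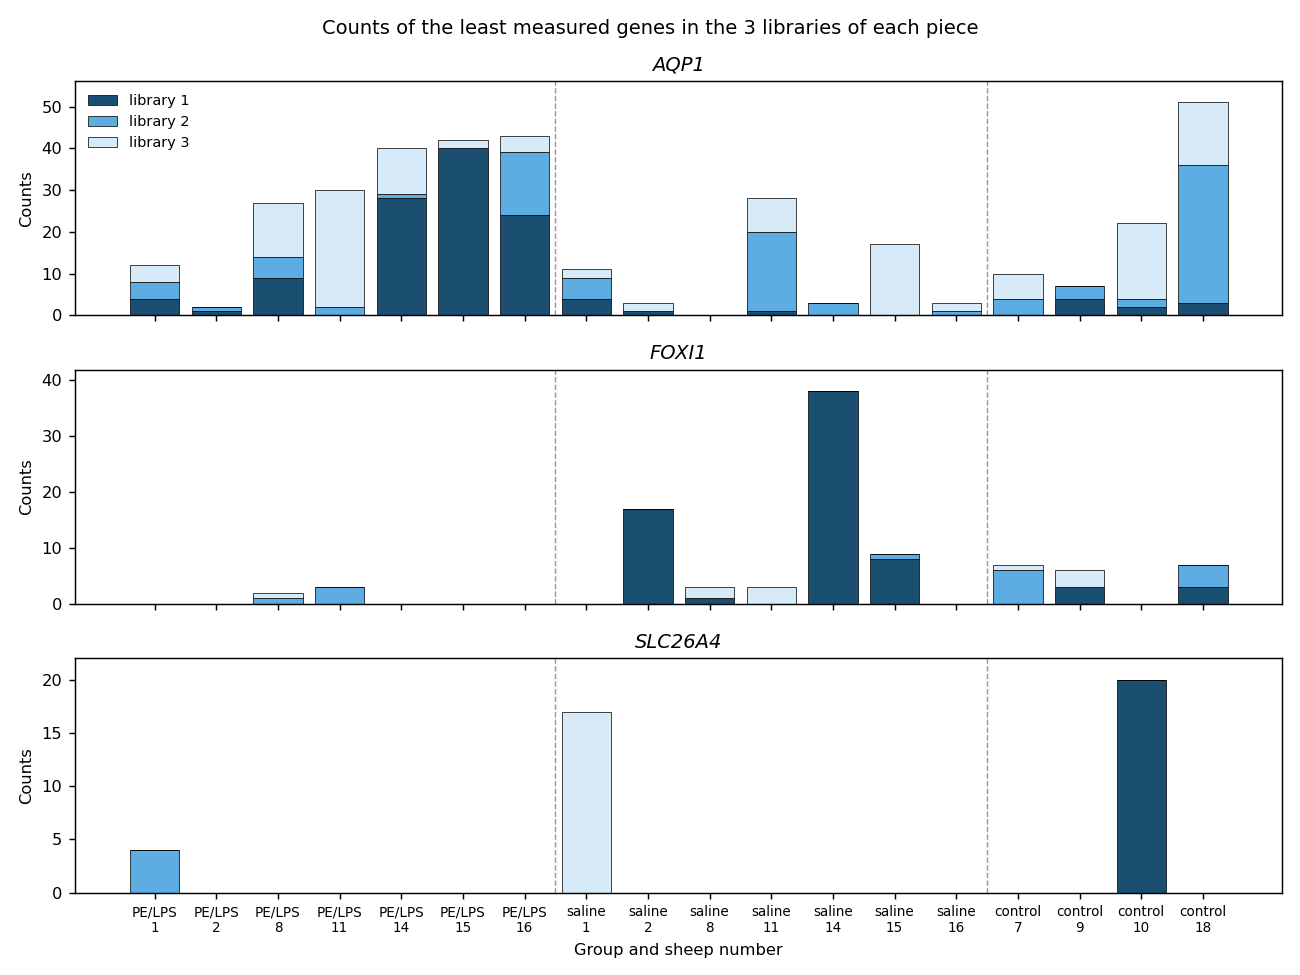
Counts (y axis) of AQP1, FOXI1 and SLC26A4 in each piece (x axis, group and sheep number), stacked by the 3 libraries of the piece. FOXI1 reached 38 counts in library 1 of saline sheep 14, and each piece with SLC26A4 counts had them in a single library.

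AQP3, a channel for water and glycerol, had 13.9, 21.9 and 44.4 CPM (lowest, median and highest) in PE/LPS pieces, against 11.7, 26.1 and 28.3 CPM in saline pieces. Control pieces had 45.9 and 28.6 CPM where coded LC and 20.2 and 11.6 CPM where coded RA. The 3 ranges overlapped, and 3 of 7 sheep were higher in PE/LPS. Its log2 fold change over saline was 0.10 (95% interval -0.48 to 0.68). In the RefSeq annotation AQP3 lies next to AQP7, a relative of it, which averaged 0.046 CPM over PE/LPS, 0.111 CPM over saline and 0.217 CPM over control pieces.

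AQP4 had 95.2, 149.8 and 466 CPM (lowest, median and highest) in PE/LPS pieces, against 125, 229 and 531 CPM in saline pieces. The control pieces of sheep 7, 9, 10 and 18 had 207, 103, 456 and 187 CPM. The highest piece was that of sheep 8 in PE/LPS, sheep 1 in saline and sheep 10 in control tissue, and the ranges overlapped. AQP4 was lower in PE/LPS in 5 of 7 sheep, where 26.7% of all genes tested were lower in 5 or more of 7. The log2 fold change was -0.50 (95% interval -1.28 to 0.28, edgeR adjusted p = 0.784), from -0.75 without sheep 8 to -0.26 without sheep 14, and -0.85 without the sheep whose PE/LPS piece has a longer title. Ciliated cell markers were measured beside it: 10 of 10 were in the table, none was at 0 in a whole group, and their sum ran from 203 to 630 CPM in PE/LPS, 498 to 730 CPM in saline and 315 to 770 CPM in control pieces. All 10 had a negative log2 fold change, 4 with an unadjusted edgeR p under 0.05 (beside 3.25% of all genes on that side), among them the dynein arm gene DNAI2 (-1.14). Their part in the AQP4 values was not tested.

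FOXI1 had 95 counts in all, in 16 of 54 libraries and 10 of 18 pieces, and did not pass the filter on low counts. PE/LPS pieces held 5 counts (2 in sheep 8 and 3 in sheep 11), saline pieces 70 and control pieces 20. Of the 70 saline counts, 55 came from 2 libraries, 38 from library 1 of sheep 14 and 17 from library 1 of sheep 2, while the other libraries of these pieces had 0. The other saline pieces held 15 counts, 9 of them in sheep 15. FOXI1 was lower in PE/LPS in 4 sheep and higher in 1, and both pieces had 0 counts in the other 2. Of 19 ionocyte markers, 18 were in the table, and ASCL3 and FOXI2, also transcription factor genes of ionocytes, were at 0 in every piece. The sum of the list ran from 45.7 to 84.4 CPM in PE/LPS, 59.2 to 148 CPM in saline and 51.9 to 97.2 CPM in control pieces. The highest values were those of saline sheep 1, where FOXI1 had 0 counts, and saline sheep 14.

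Against control tissue, the transport genes of PE/LPS and of saline pieces again stayed within the spread of the pieces. Between PE/LPS and control, 0 of the 8 genes were called, and 0 of all 18340 genes tested were (0%), with 234 (1.28%) at an unadjusted edgeR p under 0.05, none of them a transport gene. SCNN1B had the largest upward difference of the ENaC subunits, with a mean of 79.5 ± 20.7 CPM over PE/LPS pieces (SD, n = 7) and 61.2 ± 13.3 CPM over control pieces (n = 4), a log2 fold change of 0.39 (95% interval -0.17 to 0.95). CFTR averaged 6.03 ± 2.43 CPM over PE/LPS pieces and 7.82 ± 3.09 CPM over control pieces, with -0.37 (95% interval -1.19 to 0.45), and -0.098 without control sheep 10. The AQP1 log2 fold change was 0.66 (95% interval -0.84 to 2.16), with 1.1 without control sheep 18 and 0.43 without control sheep 7. It was 0.13 against the LC control pieces alone, 2.73 in library 1 of each piece alone (edgeR p = 0.0333, adjusted p = 1.00) and 0.074 in library 3 alone. SCNN1A had 0.27, and its sign rested on single pieces, with -0.0018 without control sheep 9 and -0.0015 without PE/LPS sheep 15. Against the LC control pieces alone SCNN1A was at -0.15.

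Between saline and control, 0 of the 8 genes and 0 of 18289 genes were called by edgeR (0%), with 898 genes (4.91%) at an unadjusted p under 0.05, none of them a transport gene, and DESeq2 called 6 genes, also no transport gene. All 3 ENaC subunit genes had higher means in PE/LPS and in saline pieces than in control pieces. SCNN1G was at 8.82 ± 1.67 CPM in saline (SD, n = 7) and 6.16 ± 2.82 CPM in control pieces (n = 4), a log2 fold change of 0.50 (95% interval -0.16 to 1.15). It was 0.87 without control sheep 10 (edgeR p = 0.0147, adjusted p = 0.950) and 1.046 against the RA control pieces alone (unadjusted edgeR p also under 0.05, adjusted p = 0.468), and the adjusted p over all alternatives was 0.468 to 1.00. SCNN1B had 0.35 (95% interval -0.17 to 0.87) and SCNN1A 0.30 (95% interval -0.48 to 1.07), with 0.046 for SCNN1A without control sheep 9, 0.11 without saline sheep 16, 0.60 without control sheep 18 and 0.86 against the RA control pieces alone. These comparisons share their control pieces with those of PE/LPS tissue and the intervals include 0. AQP1 was at -0.94 (95% interval -3.03 to 1.16), and -0.10 against the RA control pieces alone. In the order of the 3 group means, the 95% interval between neighbouring groups included 0 for all 8 genes.

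**Figure D3:**
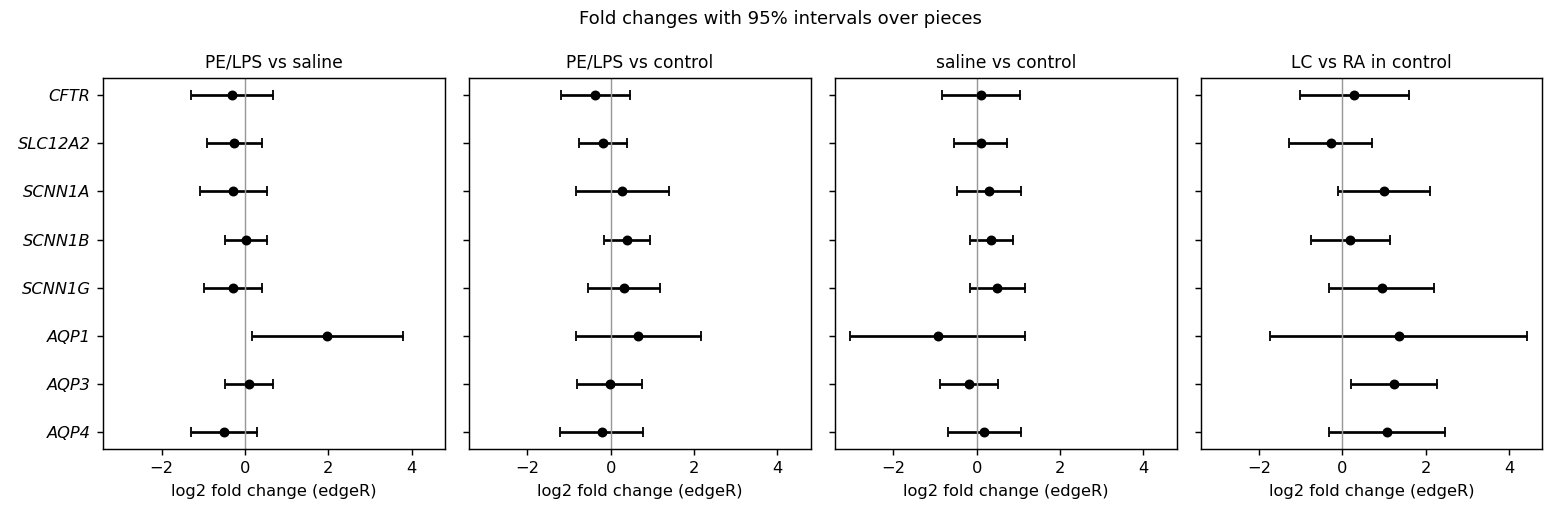
Log2 fold changes (x axis) of 8 transport genes in 4 comparisons, with 95% intervals from the edgeR fits over pieces. The interval left out 0 for AQP1 in PE/LPS against saline and for AQP3 in LC against RA control pieces.

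Because treatment and code are the same split in the exposed sheep, the code was compared in the control sheep, with 2 LC and 2 RA pieces from different animals. AQP3 had 45.9 and 28.6 CPM in LC, against 20.2 and 11.6 CPM in RA pieces, and the smallest p of the 8 genes. Its log2 fold change was 1.23 (SE 0.45, 95% interval 0.21 to 2.26, edgeR p = 0.0240, adjusted p = 0.987). It was 0.84 without sheep 10 and 1.65 without sheep 7, where the lone piece of a code is assumed to vary like the others. Levels of SCNN1A, SCNN1G, AQP1 and AQP3 did not overlap between the codes, all 4 of 8 higher in LC, where 16.6% of the 18063 genes tested were higher with no overlap. AQP1 had the largest log2 fold change, 1.35, with the widest interval (95% interval -1.73 to 4.43). AQP4 had 1.06 (95% interval -0.33 to 2.46), with 0.27 without sheep 10, 0.65 without sheep 9 and 1.62 without sheep 7. SCNN1A had 0.99 (95% interval -0.11 to 2.10), with 0.53 without sheep 9 and 1.65 without sheep 7 (edgeR p = 0.00899, adjusted p = 0.282). SCNN1G had 0.94 (95% interval -0.31 to 2.20), and 0.51 without sheep 10. SLC12A2 was the only 1 of the 8 with a negative log2 fold change, -0.28 (95% interval -1.28 to 0.71).

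By edgeR 0 of the 8 transport genes and 0 of 18063 genes were called between the codes (0%), with 670 (3.71%) at an unadjusted p under 0.05, 298 of them higher in LC (1.65%), among them AQP3. DESeq2 called 51 genes, 12 higher and 39 lower in LC, and none of the 8. Of the airway surface markers, 0 were called between the codes by edgeR with the filter on low counts. All 10 ciliated markers had a positive log2 fold change, as did 7 of 7 secretory markers in the table, out of a list of 9, and 5 of 5 basal markers, out of a list of 7. An unadjusted p under 0.05 was reached by 3 of the ciliated, 1 of the secretory and 1 of the basal markers. Of 7 gland markers tested, out of a list of 8, 5 had a positive and 2 a negative log2 fold change. An unadjusted edgeR p under 0.05 was reached by 2 of the 7, both higher in LC. DESeq2 called the basal marker KRT5, the secretory marker BPIFB1 and the gland markers LTF and DMBT1, with log2 fold changes of 1.82 to 3.29, and edgeR without the filter on low counts called KRT5, BPIFB1 and LTF. The secretory sum ran from 2024 to 10678 CPM over the control pieces and the basal sum from 9.12 to 52.4 CPM. Their part in the values of AQP3 and the others was not tested.

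The PE/LPS minus saline difference was then set against the LC minus RA difference of the control sheep, with limma voom and the sheep as a random block. It was lower for 7 of the 8 genes, the exception being AQP1, although SLC12A2 was at 0.051 with DESeq2 size factors. The contrast was -1.55 for AQP4 (95% interval -3.17 to 0.08, limma p = 0.0618), -1.10 for AQP3 (-2.27 to 0.08), -1.14 for SCNN1A (-2.95 to 0.68) and -1.06 for SCNN1G (-2.31 to 0.20). For AQP1 it was 0.97 (-1.95 to 3.89), so the AQP1 difference within exposed sheep was not shown to exceed the difference between codes. Of 19162 genes 0 were called (0%), with 1062 (5.54%) at an unadjusted p under 0.05, none of them a transport gene.

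Among the 18 pieces, some of the transport genes had similar profiles. Levels were compared by Spearman's rank correlation of log2 CPM, as a description without a test, since 14 of the pieces come in pairs from 7 sheep and share depth and scaling. CFTR and SLC12A2, the exit and entry steps for chloride, had a rho of 0.69, and of the other genes above a mean of 1 CPM 0.287% lay closer to CFTR and 3.04% closer to SLC12A2. AQP3 and AQP4 had 0.67, with 0.211% of genes closer to AQP3 and 1.14% closer to AQP4. CFTR and AQP4 had 0.59, with 1.75% of genes closer to CFTR and 2.20% closer to AQP4. SCNN1G and SCNN1B, which lie near each other in the genome, had 0.57, with 0.721% of genes closer to SCNN1G and 1.78% closer to SCNN1B. SCNN1A stood further from its partner subunits, with 0.34 for SCNN1B and 0.38 for SCNN1G, and CFTR and SCNN1A had -0.37.

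Among the 15672 genes above a mean of 1 CPM, those most like CFTR were DMXL2 (rho 0.87), ODF2L (0.83) and DNAI4 (0.82). For SLC12A2 they were EPS15 (0.94), SFPQ (0.93) and TRA2A (0.93), and for SCNN1A TOX (0.93), LY6E (0.92) and TMED4 (0.91). The other subunit genes were most like TCF7, DDX31 and PBX2 (SCNN1B, 0.85 to 0.80) and CFAP52, TTC23L and NSUN7 (SCNN1G, 0.80 to 0.78). For AQP3 the nearest was EFCAB12 (0.79), followed by CAPS2 and KCNJ2, and for AQP4 it was PLCH1 (0.88), followed by C3H2orf73 and ACADL.

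**Figure D4:**
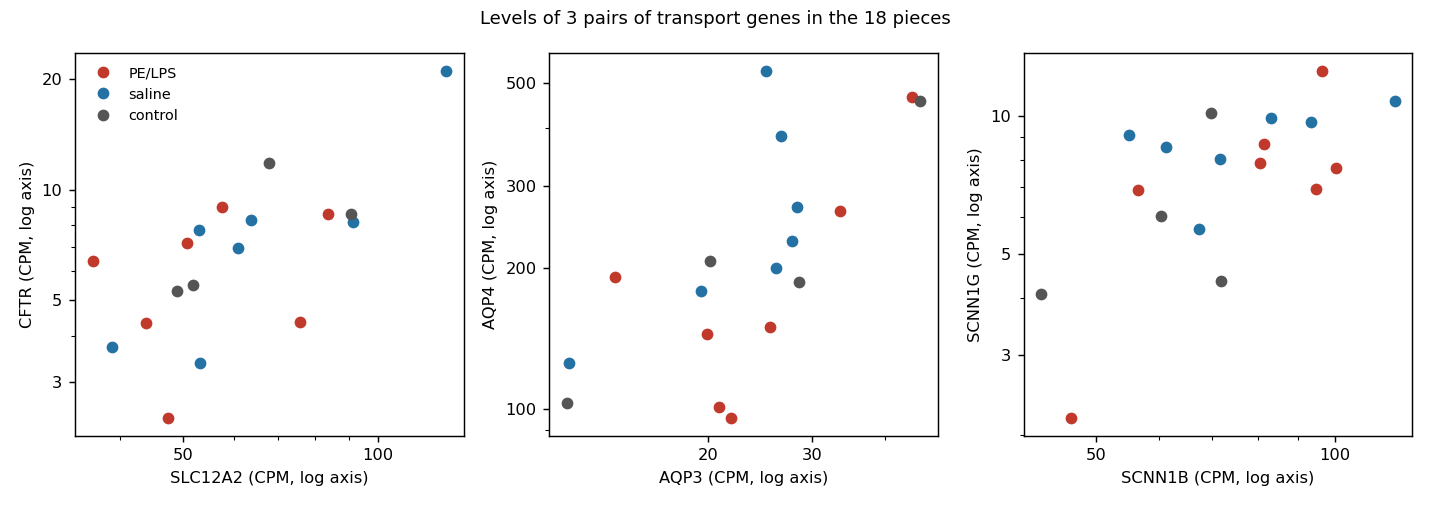
Levels of 3 pairs of transport genes in the 18 pieces (both axes in CPM, log scale), coloured by group. Pieces with more SLC12A2 had more CFTR (rho 0.69), those with more AQP3 had more AQP4 (0.67) and those with more SCNN1B had more SCNN1G (0.57).

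The wider set of transport genes gave a similar picture, with lower levels of a few partners in PE/LPS than in saline tissue at an unadjusted edgeR p under 0.05 and none past the adjusted threshold. Of 3 other aquaporin genes tested (of 10), 1 was lower. Of 17 other anion channel and exchanger genes tested (of 19), 0 differed at that level, and of 13 CFTR partners tested (of 16), 0 did. Of 10 sodium pump and potassium channel genes tested (of 13), 1 was lower, and of 19 ENaC partners tested (of 21), 2 were lower. Over all genes 3.25% were lower at that level. The median log2 fold change of the 8 transport genes was -0.27, of the anion genes -0.28, of the ENaC partners -0.11, of the CFTR partners -0.15, of the pump and potassium channel genes -0.13 and of the other aquaporins -0.036, beside -0.03 over all genes.

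The potassium channel gene was KCNN4, whose product lets potassium leave the cell on the basal side and so sustains chloride secretion. Its values in this comparison were picked after they were seen. So were those of PRSS8, ST14, AQP9, ATP6V1B1, the type 2 cell markers SLC34A2 and ABCA3, and the endothelial gene KDR. For KCNN4, the PE/LPS pieces of sheep 1, 2, 8, 11, 14, 15 and 16 had 11.5, 0.256, 1.44, 6.69, 9.27, 8.45 and 9.79 CPM. The saline pieces of the same sheep had 13.6, 17.4, 23.7, 13.4, 14.7, 20.8 and 16.1 CPM. Every saline piece was above every PE/LPS piece, where 0.0354% of genes were lower in PE/LPS with no overlap. The log2 fold change was -1.64 (SE 0.57, edgeR adjusted p = 0.771), and the lowest pieces were those of sheep 2 and 8, with longer titles. It was -0.74 without the 3 sheep with a longer title in PE/LPS, and -2.40 in library 1 of each piece alone.

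KCNN4 also separated saline from control tissue, a comparison that shares the saline pieces. The control pieces of sheep 7, 9, 10 and 18 had 8.65, 10.2, 6.62 and 10.6 CPM, all below the saline pieces, where 0.197% of genes were higher in saline with no overlap. Saline over control gave a log2 fold change of 0.91 (SE 0.25, edgeR p = 0.00194, adjusted p = 0.939), and 0.80 to 0.99 with a piece left out. The PE/LPS and control pieces overlapped.

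PRSS8 and ST14, both on the list of ENaC partners, encode the membrane proteases prostasin and matriptase. Prostasin activates ENaC. PRSS8 had 9.47 to 71.3 CPM in PE/LPS, 43.9 to 88.4 CPM in saline and 18.7 to 55.9 CPM in control pieces, and was lower in PE/LPS than in saline in 6 of 7 sheep, with a log2 fold change of -0.92 (edgeR adjusted p = 0.771). ST14 had 9.09 to 35.2 CPM in PE/LPS, 20.1 to 68.5 CPM in saline and 18.2 to 36.4 CPM in control pieces, with -0.65 (adjusted p = 0.771). Among PE/LPS pieces both were lowest in sheep 2, 8 and 11, and without those sheep the values were -0.25 and -0.19. AQP9, a channel for water and small solutes known from leukocytes, was lower in 7 of 7 sheep, with 5.12 to 20.9 CPM in PE/LPS, 13.2 to 33.2 CPM in saline and 7.47 to 22.4 CPM in control pieces. Its log2 fold change was -0.89, and -0.39 without the sheep with longer titles. Of all genes tested, 0.879% were lower in 7 of 7 sheep.

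Markers of alveolar type 2 cells, which also express PRSS8, were measured in the same pieces. All 10 were in the table and none was at 0 in a whole group. Their sum ran from 4807 to 128560 CPM in PE/LPS (median 28176), 22592 to 102790 CPM in saline (median 62403) and 24823 to 57917 CPM in control pieces (median 48703), and the lowest PE/LPS value was that of sheep 8. The surfactant gene SFTPC carried most of the sum. Alone it ran from 2779 to 113720 CPM in PE/LPS, 16822 to 83705 CPM in saline and 19965 to 47202 CPM in control pieces. In PE/LPS over saline 9 of the 10 markers had a negative log2 fold change, and 0 were called. An unadjusted edgeR p under 0.05 was reached by 2 of them (SLC34A2, -0.86, and ABCA3, -0.61), beside 3.25% of all genes on that side. In saline over control all 10 had a positive log2 fold change, 5 of them with an unadjusted edgeR p under 0.05, where 1.66% of all genes tested were higher at that level. Among them were the phosphate transporter gene SLC34A2 (0.93) and the surfactant gene SFTPB (1.03). Their part in the values of KCNN4, PRSS8 and the others was not tested.

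**Figure D5:**
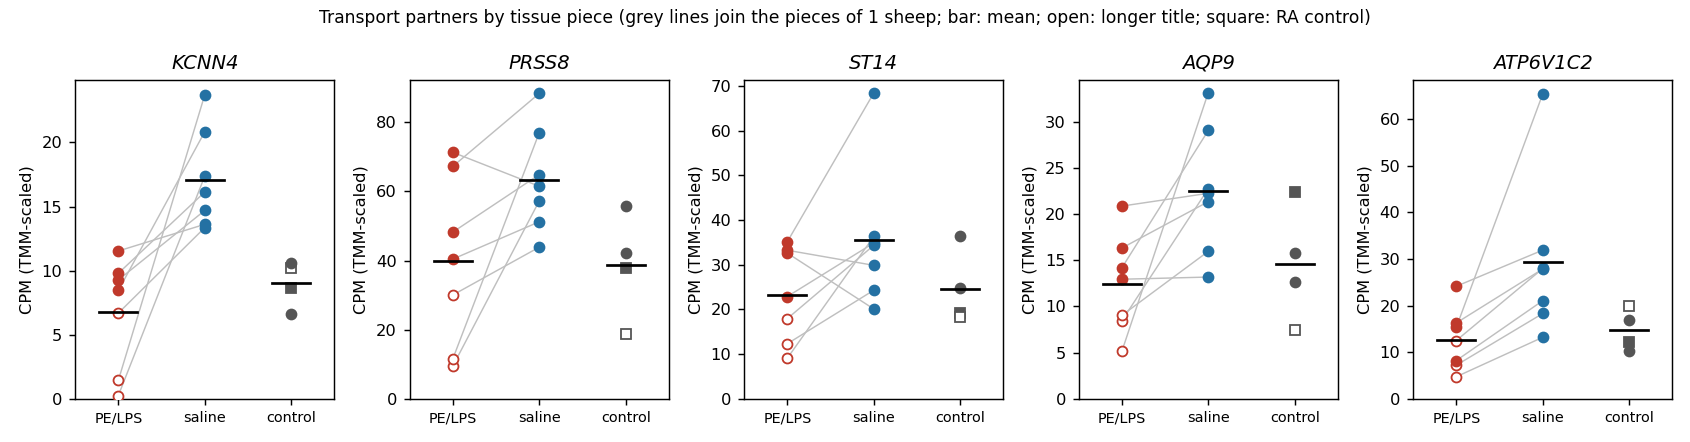
Levels (y axis, CPM) of KCNN4, PRSS8, ST14, AQP9 and ATP6V1C2 in PE/LPS, saline and control pieces (x axis), drawn as in the plot of the 8 transport genes by piece. KCNN4 pieces of PE/LPS tissue (0.256 to 11.5 CPM) all lie below those of saline tissue (13.4 to 23.7 CPM), and the open PE/LPS symbols are low for most of the 5 genes.

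ATP6V1C2, a subunit of the proton pump that acidifies fluid and is abundant in ionocytes, is on the ionocyte marker list. Of all listed genes it had the smallest edgeR p between PE/LPS and saline tissue. It averaged 12.6 ± 6.63 CPM over PE/LPS and 29.4 ± 17.1 CPM over saline pieces (SD, n = 7 each) and 14.8 ± 4.46 CPM over control pieces (n = 4), and was lower in PE/LPS than in saline in 7 of 7 sheep (log2 fold change -1.22, SE 0.24, edgeR adjusted p = 0.771, DESeq2 adjusted p = 0.00812). Without the sheep with longer titles it was -1.16. Saline over control gave a log2 fold change of 0.97 (edgeR p = 0.0206, adjusted p = 0.939). In saline sheep 14 ATP6V1C2 made up 65.4 CPM of an ionocyte marker sum of 134 CPM. The part of any cell type in its values was not tested. Another subunit, ATP6V1B1, had -0.82 with 5 of 7 sheep lower. These were the 2 of 10 ionocyte markers tested (of 19) that were lower at an unadjusted edgeR p under 0.05, beside 3.25% of all genes. Of the 10, 6 had a positive and 4 a negative log2 fold change of PE/LPS over saline. Their median was 0.30, beside -0.03 over all genes. DESeq2 was the only tool run that called ATP6V1C2.

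AQP5, ANO1 and SGK1 were named whatever their values. The partners above were named for a small p, so the sets are not compared. AQP5, the apical water channel of alveolar type 1 and gland cells, averaged 167 ± 70.3 CPM in PE/LPS, 169 ± 55.5 CPM in saline and 171 ± 60.8 CPM in control pieces. ANO1, a calcium-activated chloride channel, averaged 44.1 ± 12.2 CPM in PE/LPS, 46.2 ± 9.73 CPM in saline and 32.1 ± 12.4 CPM in control pieces, and in the control sheep its log2 fold change of LC over RA was -0.92 (edgeR p = 0.0441, adjusted p = 0.987). SGK1, a kinase that keeps ENaC at the membrane, averaged 107 ± 55.1 CPM in PE/LPS, 96.3 ± 35.8 CPM in saline and 95.8 ± 34.6 CPM in control pieces. The spread among pieces of a group exceeded the difference between groups for AQP5 and SGK1. Listed at 0 in every piece were ASCL3, FOXI2, KCNE2 (a potassium channel subunit) and SLC9A3 (a sodium and proton exchanger).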

How the data were processed

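RNA of 18 sheep lung pieces was sequenced as 54 libraries after poly-A priming, template switching and tagmentation, per the labels' protocols. The authors deposited whole-number counts per gene, not normalized, in 1 table of 30186 rows, of which 2 hold no values. Named in the submitters' processing notes are STAR 2.7.10b, Subread 1.6.3 with featureCounts, edgeR 3.40.2, Trimmomatic 0.39 and FastQC 0.11.9, without roles. The sources used here do not give the genome build, the strand setting or any treatment of molecular identifiers. RefSeq symbols matched 25441 gene IDs (84.3%) in the ARS-UI_Ramb_v3.0 annotation, used for names and neighbours.

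From the deposited counts, the 3 libraries of a piece were summed and CPM and log2 CPM (prior count 2) computed with TMM. Tests ran in R 4.3.3 with edgeR 4.0.16 (robust quasi-likelihood fits after filterByExpr at 10 counts, 15 in total), with the sheep as a block for PE/LPS against saline, and limma 3.58.1 voom for the contrast of the 2 differences, with adjusted p under 0.05. The scripts were tested on simulated data. DESeq2 1.42.0, other scalings, no filter, left-out sheep, titles or libraries, code-matched controls and fits of single libraries (added after seeing the data) were alternatives. Per the design text both lobes come from the same animals, so the numbers pair the pieces. Over 15672 genes their deviations from group means correlated at -0.25 to 0.34, above 0.1 in 4 of 7 pairs. They were negative in sheep 8 (-0.25), 14 (-0.11) and 16 (-0.18). The correlation within sheep in the voom fit was -0.023, so the pairing rests on the design text. For PE/LPS against saline, edgeR p-values measure how the difference within a sheep varies over the 7 sheep. In the other edgeR comparisons they measure the spread between pieces of different animals. With 1 piece from each animal there, spread between animals and spread between pieces cannot be told apart. Floors cover counting error only.

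The genes, partner lists and marker lists were chosen with earlier results of these data known. Named by rule were the 10 genes, at most 5 list genes with the smallest p per comparison, AQP5, ANO1, SGK1 and ASCL3 (1 further gene is not reported here), and for each gene above 1 CPM the 3 most similar. Mesothelial and smooth muscle markers were measured too: 1 of 1 tested mesothelial marker of 6 was lower in PE/LPS than in saline at an unadjusted p under 0.05 (MSLN, log2 fold change -1.93, called by DESeq2 but not by edgeR), and 0 of 6 smooth muscle markers differed. Alveolar type 1 markers gave 1 higher of 9, secretory markers 1 lower of 7, gland markers 1 lower of 6 and basal markers 0 of 5. Over all genes tested 2.51% were higher and 3.25% lower at that level. All 6 gland markers tested had a negative log2 fold change, with a median of -0.85 beside -0.03 over all genes.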

Additional observations from a re-analysis of the deposited data

Results flagged for a closer look

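In 6 of 30 sets of values (a gene in a group), 1 piece stood far from the others, by a ratio of its gap to the range of the group above the 95% critical value. Chance gives about 1 in 20 such sets where values vary, but in the 3 sets of SLC26A4 all other pieces were at 0, so the ratio was fixed and the count of 6 is not read against it. CFTR was 21.1 CPM in the saline piece of sheep 14, where the next saline piece had 8.27 CPM, and FOXI1 was 2.44 CPM in that same piece, where the next had 0.847 CPM. AQP1 was 1.11 CPM in the saline piece of sheep 11, against 0.465 CPM in the next. SLC26A4 was 0.214 CPM in the PE/LPS piece of sheep 1, 0.461 CPM in the saline piece of sheep 1 and 0.630 CPM in the control piece of sheep 10, where all other pieces of each group were at 0. All counts behind these FOXI1 and SLC26A4 values came from a single library of the piece.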

How the results depend on the processing

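None of the 8 genes was called in any comparison under any alternative run. Over the whole table the count of genes called, 0 in each comparison, became 1 without a low-count filter, 47 by DESeq2, 1 with no replicate block and 0 to 1 with a sheep left out for PE/LPS against saline. It became 6 by DESeq2 for saline against control, and 94 without a filter, 51 by DESeq2, 1 by voom and 2 to 33 with a sheep left out for LC against RA. The replicate block changed no call of the 8 genes. Of 568 values of these genes under the alternatives, 520 kept their sign and 48 did not, 27 of them with a sheep left out; the cause was not tested. For PE/LPS against saline, log2 fold changes that changed sign were SCNN1B -0.079 with library totals alone, SCNN1A 0.41, SCNN1G 0.020 and AQP3 -0.21 without the longer titles, CFTR 0.056, SCNN1B -0.17 and AQP3 -0.12 in library 1 alone, and SCNN1B -0.0012 in library 2 alone. With a sheep left out AQP3 ran from -0.044 to 0.25, SCNN1B from -0.10 to 0.15 and CFTR from -0.59 to 0.090.

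For PE/LPS against control, AQP3 was 0.019 by voom, 0.090 in library 1 alone and 0.020 in library 2 alone, and against LC control pieces alone SCNN1A was -0.15 and SCNN1G -0.10. With a sheep left out AQP3 ran from -0.29 to 0.37, SLC12A2 from -0.32 to 0.0064, SCNN1A from -0.0018 to 0.59 and AQP4 from -0.59 to 0.30. For saline against control, CFTR was -0.085 by voom, -0.025 without the longer titles and -0.036 in library 3 alone, AQP4 was -0.056 without the longer titles, AQP3 was 0.072 in library 1 alone, and against RA control pieces alone SLC12A2 was -0.040 and AQP3 0.56. With a sheep left out AQP4 ran from -0.058 to 0.74, CFTR from -0.31 to 0.39, AQP3 from -0.42 to 0.24 and SLC12A2 from -0.12 to 0.29. For LC against RA, SLC12A2 ran from -0.62 to 0.14, SCNN1B from -0.13 to 0.57 and CFTR from -0.42 to 0.77, and the contrast of the differences for SLC12A2 was 0.051 with DESeq2 size factors.

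The 3 libraries of a piece were summed, so they added no replicates. Precision rested on 4 to 7 sheep per group, and on 2 pieces per code in the control sheep. The 95% interval of CFTR in PE/LPS against saline ran from -1.29 to 0.68 on the log2 scale. AQP1, FOXI1 and SLC26A4 lie near the limit of detection, where the count of 1 library can set the level of a piece.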
